A study of Mus musculus with 8 samples.

Results

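The receptors of IL-6, IL-12, IL-27 and IL-17 were examined through 6 genes in sorted mouse Treg, the Foxp3-dependent CD4 T cells that hold other immune responses in check. The genes are Il6ra, Il6st, Il27ra, Il12rb1, Il12rb2 and Il17ra, found by symbol among the 19826 genes of the deposited table, and all 6 passed the filter on low values that left 13847 genes for testing. The tested libraries came from Foxp3 YFP-Cre/+ Pdpk1 FL/FL mice, which carry loxP-flanked copies of Pdpk1, the gene of the kinase PDK1 that activates AKT and related kinases downstream of PI3K (labelled Pdpk1 KO, 4 libraries). They were set against Foxp3 YFP-Cre/+ Pdpk1 +/+ mice (WT, 4 libraries). Both groups were C57BL/6 and untreated, and both carry the Foxp3-driven YFP-Cre allele on 1 of their X chromosomes, so the Cre is active in Foxp3-expressing cells and each animal also holds Treg without it. Polyadenylated RNA was sequenced from CD4+ YFP+ cells sorted from peripheral lymph nodes and spleen. Age, and whether a library came from 1 mouse, are not given in the sources used here. The p-values therefore measure only the spread between these libraries.

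Interleukin 6 (IL-6) binds its alpha chain, encoded by Il6ra, and the pair then engages gp130, encoded by Il6st, which signals mainly through STAT3. IL-27 uses its own chain, encoded by Il27ra, with the same gp130, and also activates STAT3. IL-12 needs the beta 1 chain of Il12rb1, which IL-23 also uses, and the beta 2 chain of Il12rb2, which recruits STAT4. The IL-17 receptor A chain of Il17ra belongs to another family and signals through the adaptor Act1 instead of STAT proteins. In CD4 T cells IL-6 is known for favouring Th17 cells over induced Treg, IL-12 for driving Th1 cells, and IL-27 for inducing T-bet, CXCR3 and IL-10.

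Receptors of the IL-6 and IL-12 type share a short signature in the cytokine-binding part outside the cell, the WSXWS box of tryptophan, serine, any residue, tryptophan and serine. It was sought as in-frame codons in the longest coding sequence of each gene in GENCODE M21 (build GRCm38), and 4 of the 6 genes held it, as did 0.329% of 21584 coding genes and 7 of 13 other receptor genes of the same families. The exact matches in those 4 genes are shown with the box in capitals and 15 coding bases on each side. They do not sort the chains by structure, and are read 5′ to 3′ on the coding strand.
Il6ra: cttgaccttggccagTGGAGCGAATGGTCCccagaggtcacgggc
Il6st: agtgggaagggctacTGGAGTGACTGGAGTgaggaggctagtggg
Il12rb1: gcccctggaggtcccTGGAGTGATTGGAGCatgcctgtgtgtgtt
Il12rb2: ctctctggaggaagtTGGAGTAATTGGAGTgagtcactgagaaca
Each stretch lies within 1 exon. That of Il6ra is in exon 6 of 10 (chr3:89885915-89885959, minus strand) and that of Il6st in exon 8 of 17 (chr13:112490582-112490626, plus strand). That of Il12rb1 is in exon 7 of 16 (chr8:70813727-70813771, plus strand) and that of Il12rb2 in exon 7 of 16 (chr6:67351255-67351299, minus strand). Il27ra (chr8:84030294-84042589, minus strand) and Il17ra (chr6:120463247-120487559, plus strand) had no exact match in coding sequences of 623 and 864 codons, which says only that these codons are not there.

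Of the 6 receptor genes, Il12rb1 and Il27ra fell and Il17ra rose in the libraries labelled Pdpk1 KO, while Il6ra, Il6st and Il12rb2 did not pass the threshold. The test was limma on log2(normalized count + 1) over all tested genes, p-values adjusted by Benjamini-Hochberg, threshold 0.05. Over all 13847 genes it called 9.47%, namely 4.41% higher and 5.06% lower. For 5 of the 6 genes, 3 higher and 2 lower, the 4 values of one group lay wholly beyond the 4 of the other. This held for 15.3% of all tested genes (7.06% higher, 8.24% lower). Among the 3 higher is Il12rb2, which met the filter on low values through the group where it was high. The median log2 change of the 6 was 0.18, beside -0.0065 over all tested genes.

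**Figure D1:**
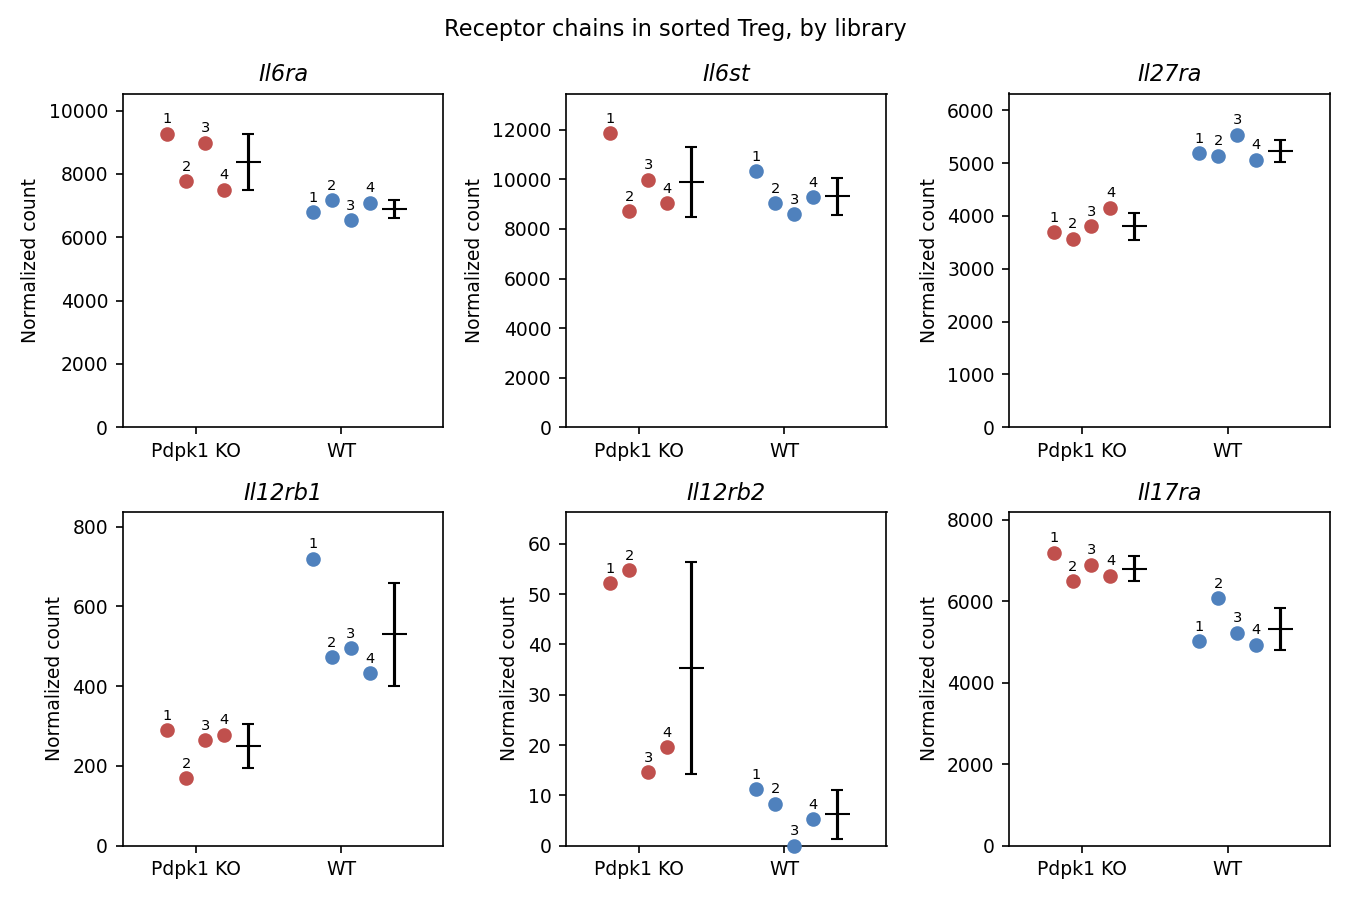
Normalized counts (vertical axes, from 0) of the 6 receptor genes in each of the 4 libraries labelled Pdpk1 KO (red) and the 4 WT libraries (blue), numbered by replicate, with the mean and SD in black. Il12rb1 and Il27ra lie lower and Il17ra, Il6ra and Il12rb2 higher in every library labelled Pdpk1 KO, whereas the groups overlap for Il6st.

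The libraries held between 17448095 and 26299577 recovered reads. Pdpk1 itself stood at 2505, 1900.1, 1872 and 1656 normalized counts in replicates 1 to 4 labelled Pdpk1 KO, against 2599.6, 2374, 1995 and 1923 in WT (limma adjusted p = 0.491). The floxed exons are not given in the sources used here, and this whole-gene value does not check the labels. All 10 markers of Treg and T cells were present in every library, Foxp3 at 4418 normalized counts or more. Of these 10, Il2ra was higher and Ikzf2 and Trac were lower, with log2 changes of 0.63, -1.13 and -0.68 (limma adjusted p = 0.00114, 4.45e-06 and 0.0118). All 19 macrophage markers were also in the table, and their summed level was 2098 to 6639 normalized counts in libraries labelled Pdpk1 KO and 352 to 2135 in WT. Of the 18 tested, 9 were higher and 0 lower. Of all 19, 3 were at 0 in some library labelled Pdpk1 KO and 7 in some WT library. The 3 libraries highest in these markers were replicates 2 and 3 labelled Pdpk1 KO and WT replicate 2. Results below are therefore also given with the mean macrophage marker level as a covariate (3.79% of all genes called) and without those 3 libraries (3.41% called). For each of the 6 receptor genes, the SE was larger in both fits than without the covariate on all 8 libraries. A lost call can reflect lower precision or a smaller change, and which of these applies was not tested. In bulk RNA, fewer cells of a type and less RNA per cell cannot be told apart. Sums for the other marker lists were 166 to 305 against 358 to 537 for 5 B cell markers, 439 to 701 against 416 to 620 for 6 of CD8 and NK cells, and 8.77 to 41.9 against 6.76 to 97.5 for 4 of dendritic cells. They were 6.83 to 289 against 15.6 to 168 for 6 erythroid markers, and 5566 to 6476 against 4368 to 5291 for 4 stromal markers, where Pecam1, which T cells also express, made up most. The 1 neutrophil marker in the table was at 0 in all but WT replicate 3.

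Il12rb1, the beta 1 chain that the receptors of IL-12 and IL-23 share (ENSMUSG00000000791, chr8:70808449-70821424, plus strand), had 289.6, 169, 264 and 278 normalized counts in replicates 1 to 4 labelled Pdpk1 KO, against 719, 472, 494 and 433 in WT. Every library labelled Pdpk1 KO was below every WT library. Its mean was 250.1 ± 55.2 in the libraries labelled Pdpk1 KO and 529.7 ± 129 in WT (SD, n = 4 each). On the log2 scale this is a change of -1.08 ± 0.20 (SE, limma adjusted p = 0.00304). The 95% interval of the change ran from -65.0% to -36.2% around -52.8%. The lowest value of all was in replicate 2 labelled Pdpk1 KO, the library highest in macrophage markers, and the highest was in WT replicate 1, the library lowest in them. Within each group Il12rb1 mostly fell as the mean log2 marker level rose. Among libraries labelled Pdpk1 KO, this level was 5.58 for both replicates 1 and 4, with 289.6 and 278 counts of Il12rb1. Replicate 3 followed with 264 at 7.17, and replicate 2 with 169 at 7.70. In WT, replicates 1, 3 and 4 had 719, 494 and 433 at levels of 2.79, 4.10 and 4.59. WT replicate 2 departed from this order, with 472 at 6.17. Libraries of different groups differ in label as well as in marker level, so comparing them does not separate the 2. The cause of the change was not tested. With the macrophage covariate the log2 change was -0.64 (limma adjusted p = 0.172), and without the 3 libraries -0.91 (adjusted p = 0.0601).

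Il12rb2 encodes the beta 2 chain, which gives the IL-12 receptor its link to STAT4 (ENSMUSG00000018341, chr6:67291318-67376188, minus strand). It was near the limit of detection, at 52.1, 54.8, 14.6 and 19.6 normalized counts in replicates 1 to 4 labelled Pdpk1 KO, against 11.3, 8.34, 0 and 5.27 in WT. These rest on 56, 50, 13 and 23 reads in the libraries labelled Pdpk1 KO, and on 10, 8, 0 and 6 reads in WT. WT replicate 1 was the only WT library at 10 normalized counts or more. The gene thus met the filter on low values through the libraries labelled Pdpk1 KO, the group where it was high. The groups do not overlap, but within the group labelled Pdpk1 KO replicates 1 and 2 stand well above replicates 3 and 4. A count of 0 in WT replicate 3 allows up to 3 reads, or 2.76 normalized counts, for counting error only. The log2 change of 2.59 ± 0.85 (SE, 95% interval 0.78 to 4.40) did not pass the threshold (limma adjusted p = 0.0703), nor did it in edgeR (2.51, adjusted p = 0.0808), while DESeq2 on the recovered reads gave 2.53 (adjusted p = 0.0166). Of the 3794 exonic bases of Il12rb2, 1519 also lie in exons of Serbp1 on the other strand, an abundant gene with 149299 reads over the 8 libraries. The strand setting of the counting is not given in the sources used here, and reads of both genes over that stretch cannot be told apart. Serbp1 averaged 19959 normalized counts in libraries labelled Pdpk1 KO and 16890 in WT and did not pass the threshold (limma adjusted p = 0.137).

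The ratio of the IL-12 receptor chains follows from the values of Il12rb1 and Il12rb2 above and adds no separate evidence. The log2 ratio of Il12rb2 to Il12rb1 was -2.45, -1.61, -4.09 and -3.76 in replicates 1 to 4 labelled Pdpk1 KO, against -5.87, -5.66, -8.95 and -6.11 in WT. All 70 ways of assigning the libraries were compared in an exact permutation test, two-sided, of the difference of 3.68 (p = 0.0286, the smallest this design can give, adjusted p = 0.0429 over 3 receptor pairs). Every library labelled Pdpk1 KO was above every WT library for Il12rb2 and below every WT library for Il12rb1. The ratios therefore had to separate, and this p was fixed in advance. The difference rests on the few reads of Il12rb2. Without WT replicate 3, where that gene was at 0, it was 2.91. The ratios had to separate in each of the 8 fits without 1 library too. There the unadjusted p of this pair was therefore the smallest that 35 assignments allow (exact permutation test, p = 0.0286). The adjusted p of 0.0571 to 0.0857 without WT replicate 2, 3 or 4 reflects the larger p-values of the other pairs in the adjustment.

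Il27ra, the chain specific to IL-27 (ENSMUSG00000005465), had 3694, 3565, 3808 and 4156 normalized counts in replicates 1 to 4 labelled Pdpk1 KO, against 5181, 5141, 5540.2 and 5064 in WT. The groups were well apart, and both were narrow. It averaged 3806 ± 254 in the libraries labelled Pdpk1 KO and 5231 ± 211 in WT (SD, n = 4 each). The log2 change of -0.46 ± 0.09 (SE, limma adjusted p = 0.00277) is a change of -27.3% with a 95% interval from -36.0% to -17.5%. The log2 change was -0.41 with macrophage markers as covariate (adjusted p = 0.0785) and -0.42 without the 3 libraries (adjusted p = 0.129). The overlap of Il27ra with exons of Palm3 on the other strand is 2 bases.

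Il6st, encoding the gp130 chain that IL-6, IL-27 and several related cytokines share (ENSMUSG00000021756, chr13:112464070-112510086, plus strand), did not pass the threshold. It had 11858, 8717, 9986 and 9037 in replicates 1 to 4 labelled Pdpk1 KO, against 10336, 9045, 8592 and 9273 normalized counts in WT. The groups overlap, and replicate 1 of each group was the highest in its group. The log2 change was 0.08 ± 0.11 (SE, limma adjusted p = 0.717), and its 95% interval corresponds to changes between -9.85% and 24.1%. Without replicate 1 labelled Pdpk1 KO it was -0.0091.

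The changes of the 2 chains of the IL-27 receptor were also compared. The log2 ratio of Il27ra to Il6st was -1.68, -1.29, -1.39 and -1.12 in replicates 1 to 4 labelled Pdpk1 KO, against -0.996, -0.82, -0.63 and -0.87 in WT. The groups do not overlap. The difference was -0.54 (exact two-sided permutation test, p = 0.0286, adjusted p = 0.0429 over 3 receptor pairs). That adjustment counts the IL-12 receptor pair, whose p was fixed in advance. The adjusted p therefore leans on that pair and is not taken as a pass. It was -0.54, -0.48 and -0.56 without WT replicate 2, 3 or 4, each with an unadjusted p of 0.0571 and with adjusted p = 0.0571, 0.0857 and 0.0857 in the same exact test.

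Il6ra, the IL-6 alpha chain, which can also be shed from the cell surface (ENSMUSG00000027947, chr3:89864059-89913196, minus strand), had 9276, 7778, 8989 and 7500.5 normalized counts in replicates 1 to 4 labelled Pdpk1 KO, against 6788, 7165, 6539 and 7090.0 in WT. The lowest library labelled Pdpk1 KO was just above the highest WT library. The log2 change of 0.28 ± 0.09 (SE, 95% interval 0.08 to 0.48) did not pass the threshold in limma (adjusted p = 0.0831) or edgeR (adjusted p = 0.0884), and passed in DESeq2 (0.28, adjusted p = 0.0257). It was 0.25 with macrophage markers as covariate and 0.29 without the 3 libraries (limma adjusted p = 0.386 and 0.382). The antisense gene Gm42809 shares 242 exonic bases with Il6ra and had 552 reads in all. The log2 ratio of Il6ra to Il6st was -0.35, -0.16, -0.15 and -0.27 in replicates 1 to 4 labelled Pdpk1 KO, against -0.61, -0.34, -0.39 and -0.39 in WT, a difference of 0.20 that did not pass (exact two-sided permutation test, p = 0.0571, adjusted p = 0.0571). Without replicate 1 labelled Pdpk1 KO this difference was 0.24 and passed (exact permutation test, adjusted p = 0.0286). That was the only 1 of 11 alternatives in which it passed. Leaving out any other single library gave an adjusted p of 0.0571 to 0.0857 in the same test.

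Il17ra, the chain common to most IL-17 receptors (ENSMUSG00000002897), had 7189, 6490.4, 6897 and 6621 normalized counts in replicates 1 to 4 labelled Pdpk1 KO, against 5017, 6070.4, 5227 and 4933 in WT. All libraries labelled Pdpk1 KO were above all WT libraries, of which replicate 2 was the nearest. Its mean was 6799 ± 310.1 in the libraries labelled Pdpk1 KO and 5312 ± 521 in WT (SD, n = 4 each). On the log2 scale this is a change of 0.36 ± 0.09 (SE, limma adjusted p = 0.0214). The change was 28.3%, with a 95% interval from 12.1% to 47.0%. With the macrophage covariate the log2 change was 0.28 (limma adjusted p = 0.285) and 0.45 without the 3 libraries (adjusted p = 0.1). Leaving out replicate 3 labelled Pdpk1 KO or WT replicate 1, 3 or 4 also ended the call, at log2 changes of 0.35, 0.33, 0.35 and 0.33 (limma adjusted p = 0.0665, 0.0504, 0.0507 and 0.0767).

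**Figure D2:**
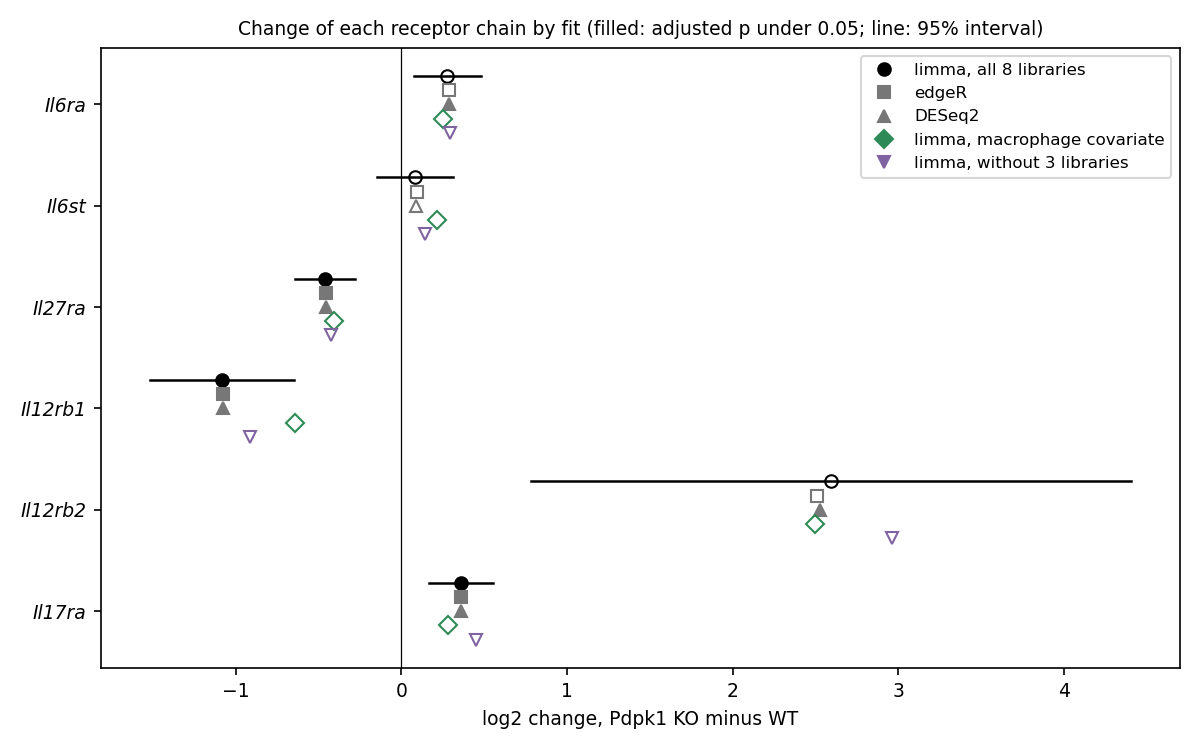
The log2 change (horizontal axis, Pdpk1 KO minus WT) of each receptor gene in 5 fits, with the 95% interval of the limma fit on all 8 libraries as a line and filled symbols for an adjusted p under 0.05. The direction of each gene is the same in the 5 fits, and the calls of Il27ra, Il12rb1 and Il17ra are lost once macrophage markers enter as covariate or the 3 libraries highest in them are left out.

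Levels of different genes were compared as normalized counts per kb of exon. In the libraries labelled Pdpk1 KO, Il27ra stood at 1089 ± 72.6 per kb, Il6ra at 970.4 ± 102, Il6st at 892 ± 127 and Il17ra at 785 ± 35.8 (SD, n = 4). The range of each of these over the libraries overlapped that of its neighbour in that order. Within every library labelled Pdpk1 KO, Il6ra was above Il6st and Il6st above Il17ra. Il27ra was above Il6ra in all but replicate 1. The exon length counts every annotated exon base of a gene. An error in it would recur in every library, so this agreement does not settle the order. Il12rb1 at 60.9 ± 13.5 per kb and Il12rb2 at 9.30 ± 5.57 per kb were apart from the chains above them. In WT, Il27ra at 1497 ± 60.5 per kb was apart from all others, followed by Il6st at 839 ± 66.6 and Il6ra at 798 ± 33.3, which overlapped. Il17ra at 613 ± 60.1, Il12rb1 at 129 ± 31.4 and Il12rb2 at 1.64 ± 1.27 per kb followed in WT, each apart from the chain above it (SD, n = 4). Il27ra thus led the order in both groups, by a margin beyond the spread in WT only.

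**Figure D3:**
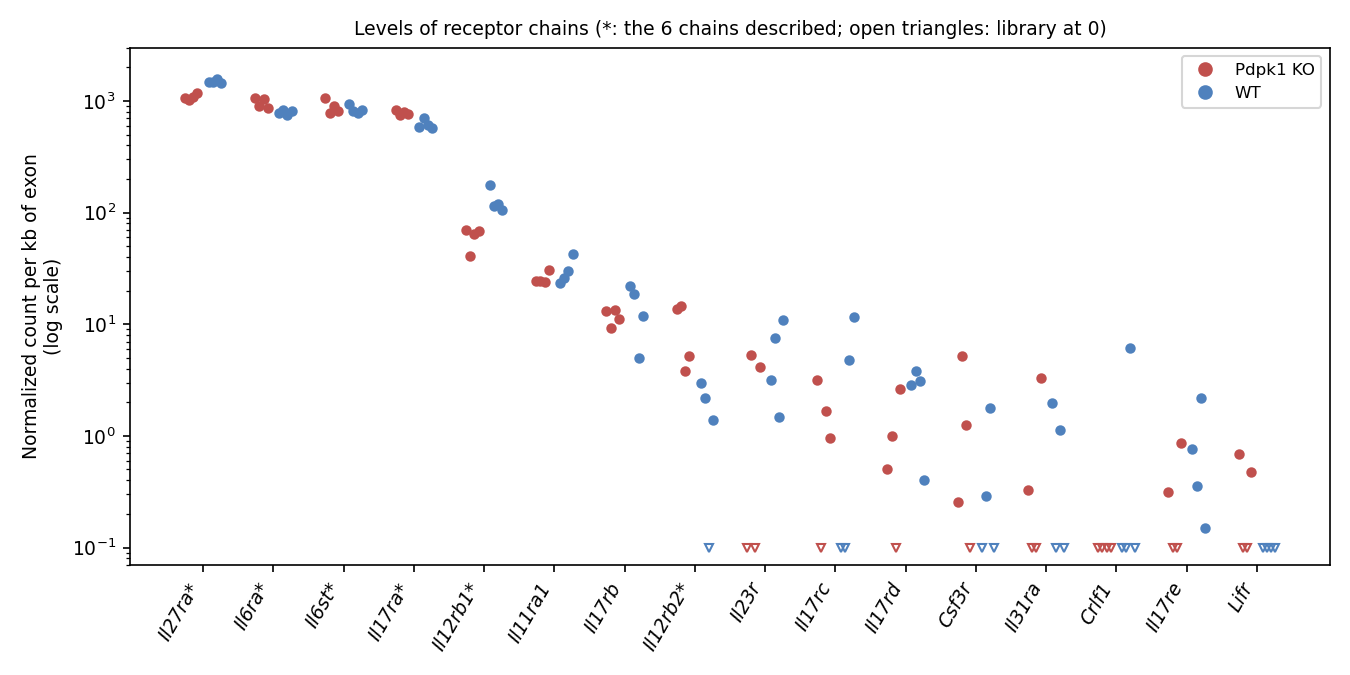
Normalized count per kb of exon (log axis) of the 6 receptor chains (asterisks) and 10 related chains in each library, Pdpk1 KO left of WT, with libraries at 0 as open triangles at the bottom. Il27ra, Il6ra, Il6st and Il17ra lie between 569.5 and 1585 per kb, far above every related chain that was not among the 6.

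Of 13 other receptor chains of these families, 10 were in the table, 4 passed the filter on low values and 0 passed the threshold in either direction. Il11ra1, the IL-11 alpha chain, was at 116 normalized counts in libraries labelled Pdpk1 KO and 137 in WT on average (limma adjusted p = 0.688). Il17rb, a chain of the IL-25 receptor, averaged 43.2 in the libraries labelled Pdpk1 KO and 53.3 in WT (limma adjusted p = 0.913). Il23r and Il17rc, which are partners of Il12rb1 and Il17ra, were scarce. Il23r, which joins Il12rb1 in the IL-23 receptor, was at 0, 13.1, 0 and 10.2 normalized counts in replicates 1 to 4 labelled Pdpk1 KO, against 7.89, 18.8, 3.68 and 27.2 in WT (limma adjusted p = 0.375). Il17rc, which joins Il17ra in the receptor of IL-17A and IL-17F, was at 8.38, 0, 4.49 and 2.56 in the libraries labelled Pdpk1 KO, against 0, 0, 12.9 and 30.7 in WT, and was too low to test.

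In all, 9 lists of genes around the receptors held 122 genes, of which 98 were tested and 35 passed the threshold, 6 higher and 29 lower. That is 35.7% of the tested genes of these lists, beside 9.47% of all genes. With macrophage markers as covariate 6 were higher and 15 lower. Without the 3 libraries highest in those markers 5 were higher and 17 lower. Over all genes, the lower calls went from 700 to 299 and 305 in these fits. The part of macrophage RNA in the other calls was not tested. Among the ligands, 9 of 19 were in the table and 7 were tested. Ebi3, encoding a subunit of IL-27 and IL-35, fell: it had 38.2, 69.0, 50.5 and 35.0 normalized counts in replicates 1 to 4 labelled Pdpk1 KO, against 199.5, 157, 204 and 228 in WT, a log2 change of -2.05 ± 0.29 (SE, limma adjusted p = 0.000294). Il17d, of the IL-17 family, rose, with 45.6, 12.1, 33.7 and 58.9 in the libraries labelled Pdpk1 KO and with 9.02 in WT replicate 1 and 0 in the other WT libraries (limma adjusted p = 0.0111). It met the filter on low values only through the libraries labelled Pdpk1 KO, the group where it was high. Its fitted log2 change of 4.24 was 6.06 with macrophage markers as covariate (limma adjusted p = 0.0107) and 4.62 without the 3 libraries (adjusted p = 0.0786). The gp130 ligand Osm was at 795 ± 203 normalized counts in libraries labelled Pdpk1 KO and 830.5 ± 126 in WT and did not pass (limma adjusted p = 0.826). Ebi3 passed under all 19 alternatives.

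Of 11 JAK and STAT genes, 1 was higher, 2 were lower and 8 did not pass. Tyk2, the kinase bound to the beta 1 chain of the IL-12 receptor, was at 1584 ± 123 normalized counts in libraries labelled Pdpk1 KO and 2113 ± 219.6 in WT (SD, n = 4 each), a log2 change of -0.41 (limma adjusted p = 0.0187). Its call was also lost without replicate 2 or 3 labelled Pdpk1 KO or WT replicate 1 or 4 (adjusted p = 0.0503 to 0.0584). Jak3, which serves the common gamma chain receptors, fell by 0.51 on the log2 scale (adjusted p = 0.0109). Stat4, the IL-12 effector, was at 1376 ± 50.8 in the libraries labelled Pdpk1 KO and 1113 ± 31.8 in WT, a log2 change of 0.31 at the edge of the threshold (limma adjusted p = 0.0499), which 12 of 19 alternatives took away, among them each of the 8 that left out 1 library. Stat3, the main effector of IL-6, had a log2 change of -0.16 and did not pass (limma adjusted p = 0.365). Of 11 negative regulators, Cish, a STAT5-induced inhibitor, fell by 0.55 on the log2 scale (limma adjusted p = 0.0028), 0 rose and 10 did not pass. One of these was Socs3, the feedback inhibitor that binds gp130, at -0.45 (limma adjusted p = 0.126). The calls of Tyk2, Jak3, Stat4 and Cish were lost with that covariate (log2 changes -0.20, -0.23, 0.32 and -0.45) and without the 3 libraries (-0.39, -0.49, 0.31 and -0.39). The SE of each was larger in both fits. The change of Stat4 was not smaller in either fit, while the others were smaller in both. The enzymes that shed these receptors, Adam10 and Adam17, had log2 changes of -0.12 and -0.05 and did not pass (limma adjusted p = 0.55 and 0.793).

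**Figure D4:**
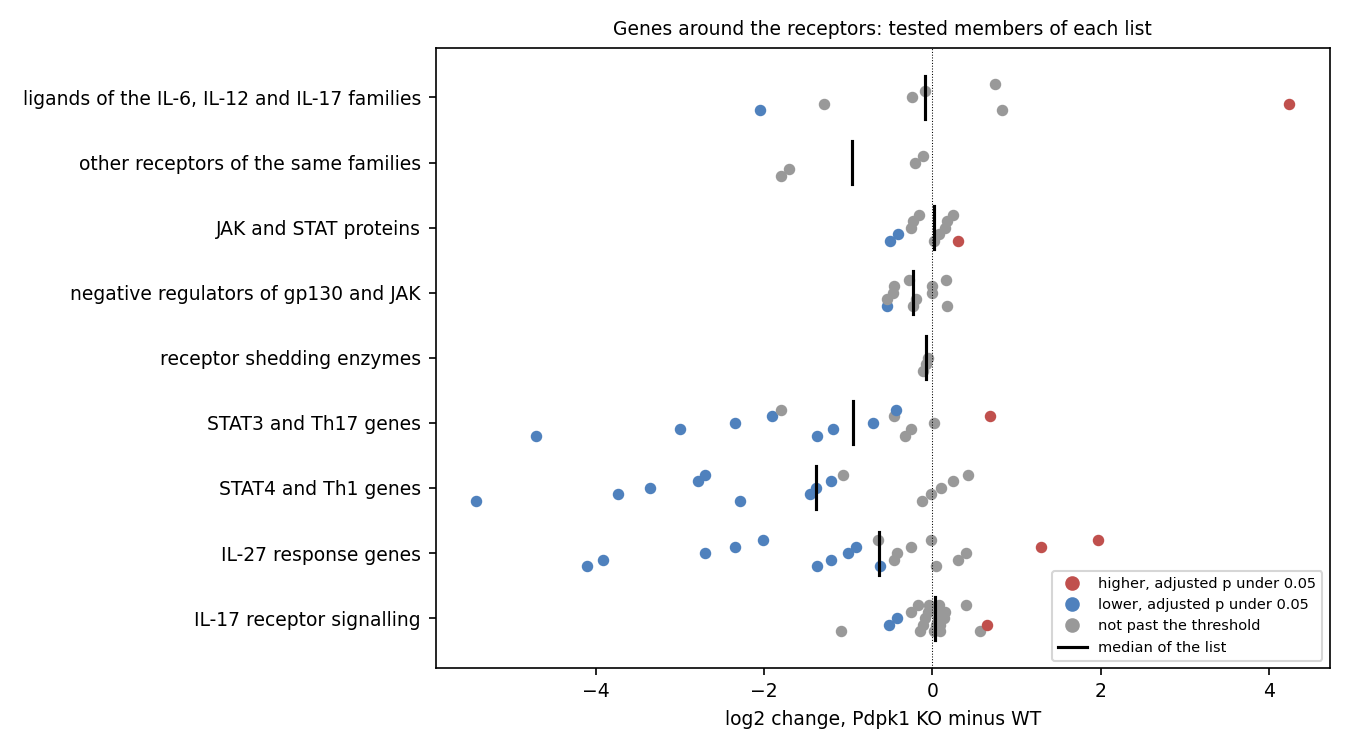
The log2 change (horizontal axis, Pdpk1 KO minus WT) of each tested gene in 9 lists around the receptors, red for higher and blue for lower at an adjusted p under 0.05, grey for the rest, with the median of each list as a black line. The STAT4 and Th1 list has its median furthest below 0, at -1.38, and the JAK and STAT genes and IL-17 receptor signalling have theirs at 0.02 and 0.03.

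Of the genes known to respond to these receptors, most of those that passed were lower. Of 15 tested STAT4 and Th1 genes, 9 were lower, 0 higher and 6 did not pass, with a median log2 change of -1.38 beside -0.0065 over all tested genes. Il18r1, a chain of the IL-18 receptor, Cxcr3, a chemokine receptor of Th1 cells, and Gzmb, a cytotoxic protease, changed by -1.38, -2.70 and -5.42 (limma adjusted p = 6.91e-07, 1.43e-05 and 3.56e-05). Of 14 tested STAT3 and Th17 genes, 8 were lower, 1 higher and 5 did not pass, with a median of -0.94. Rora, a nuclear receptor gene that promotes Th17 cells, had 281, 309, 362 and 416 normalized counts in replicates 1 to 4 labelled Pdpk1 KO, against 842, 743, 702 and 792 in WT. Every library labelled Pdpk1 KO was below every WT library. Rora and Ccr6, a chemokine receptor of Th17 cells, fell, with log2 changes of -1.18 and -1.91 (limma adjusted p = 9.38e-05 and 9.12e-05). The member that rose was Pim1, a kinase gene induced by STAT proteins, at a log2 change of 0.69 (limma adjusted p = 0.00181). Il18r1, Cxcr3, Gzmb, Rora and Ccr6 each passed under all 19 alternatives.

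Of 20 tested IL-27 response genes, 10 were lower, 2 higher and 8 did not pass, with a median log2 change of -0.63. The members that rose were the interferon-inducible GTPase genes Gbp2 and Gbp3. Gbp2 was at 11915 ± 2507 normalized counts in libraries labelled Pdpk1 KO and 3015 ± 443 in WT (SD, n = 4 each), and Gbp3 changed by 1.29 on the log2 scale (limma adjusted p = 1.27e-06 and 3.11e-06). Gbp genes are close copies of each other, and how shared reads were counted is not given in the sources used here. Maf, a factor that promotes Il10, belongs to this and the Th17 list and changed by -2.35 (limma adjusted p = 8.38e-07). Maf, Gbp2 and Gbp3 passed under all 19 alternatives. The IL-27 list, the Th1 list and the Th17 list share members, so their counts are not independent. Of 22 genes of IL-17 receptor signalling, 1 was higher, 2 were lower and 19 did not pass, with a median of 0.03. Traf6, the ubiquitin ligase downstream of Act1, was at 2620.4 ± 235 normalized counts in libraries labelled Pdpk1 KO and 1669 ± 163 in WT (SD, n = 4 each), a log2 change of 0.65 (limma adjusted p = 0.000753). Traf3, which restrains the receptor, and Zc3h12a, which encodes the RNA-degrading enzyme Regnase-1, fell, with log2 changes of -0.42 and -0.51 (limma adjusted p = 0.0154 and 0.0271). Both calls were lost with macrophage markers as covariate (-0.36 and -0.33) and without the 3 libraries (-0.31 and -0.42). Traf3 was also lost without replicate 2 labelled Pdpk1 KO or WT replicate 2 (limma adjusted p = 0.0505 and 0.0513), and Zc3h12a without replicate 2 or 3 labelled Pdpk1 KO or WT replicate 1, 2 or 4 (0.0526 to 0.088).

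The genes whose pattern over the 8 libraries was most like each receptor were ranked by Pearson's r of log2(normalized count + 1) among 9659 protein-coding genes, as a description with no test, since the libraries fall into the 2 groups compared. For Il27ra they were Hsd11b1 and Sema4a (r = 0.99 each), with log2 changes of -1.03 and -0.48. For Il12rb1 they were Mast4 and Frmd4b (r = 0.98 each), at -0.53 and -1.68. For Il17ra they were Tent5a (r = 0.98) and Arid5a (r = 0.97), at 0.75 and 0.47. For Il6ra they were Grap2 and Vangl2 (r = 0.99 each), for Il6st Kmt5b and Ubr1 (r = 0.99 each), and for Il12rb2 Pank4 (r = 0.98) and Ppan (r = 0.97).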

How the data were processed

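The deposited values are a signal, namely read counts per gene scaled by the authors with 1 size factor for each library, as the table's title and values show. The submitters' processing notes list GRCm38, DESeq2 1.21, featureCounts (Subread 2.0.1), the aligner STAR 2.7.6a, SAMtools 1.11 and the trimmer Trimmomatic 0.39, without settings. Whole multiples of a library's smallest positive value made up 100% of its values (tolerance 0.001), so whole reads were recovered. Of 19826 Ensembl genes, 19775 matched a GENCODE M21 symbol, and 5979 were removed because fewer than 4 of 8 libraries reached 10 normalized counts. Tests used limma 3.58.1 in R 4.3.3 (trend, two-sided, no replicate term), with edgeR 4.0.16 (which called 9.06% of genes) and DESeq2 1.42.0 (12.7%) on the recovered reads as alternatives. Fold changes are on the log2(normalized count + 1) scale, as libraries labelled Pdpk1 KO minus WT, which understates the change of low genes. Steps were tested on simulated counts.

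The 6 genes and all lists were chosen with earlier results of these data known, so no list is independent evidence. Named were all 6, up to 4 called genes per list with the smallest adjusted p (or the 2 most abundant), and 2 genes most like each receptor. Others (Il2ra, Ikzf2, Trac, Pecam1, Il23r, Il17rc, Osm, Stat3, Socs3 and Pim1) were chosen after their values were seen. Intervals of log2 changes come from the spread between libraries, and the floor of 3 reads covers counting error only. Some genes that the rule names are not reported here.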

Additional observations from a re-analysis of the deposited data

Results flagged for a closer look

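In groups of 4 libraries, a value was singled out when its gap to the nearest other exceeded Dixon's 95% critical share of the group's range. Chance does this in about 1 of 20 groups, and 5 of 64 groups were singled out. Among the receptors this was the log2 ratio of Il12rb2 to Il12rb1 in WT replicate 3, at -8.95, where Il12rb2 was at 0. The others were Il11ra1 in replicate 4 labelled Pdpk1 KO, at 138 normalized counts, and Il18r1 in replicate 3 labelled Pdpk1 KO, at 772. In WT replicate 1 they were Maf at 8326 and Il17d at 9.02, the only WT library with reads of Il17d.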

How the results depend on the processing

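Il27ra and Il12rb1 remained lower and past the threshold in 17 of 19 alternatives each, and Il17ra higher in 13 of 19. The exceptions were adding the macrophage covariate, and leaving out the 3 libraries highest in macrophage markers (Il27ra -0.41 and -0.42, Il12rb1 -0.64 and -0.91, Il17ra 0.28 and 0.45) and, for Il17ra, 4 of the single-library omissions (range over 8, 0.33 to 0.43). Il6ra passed in DESeq2 (0.28) and with the replicate block (0.28). Il12rb2 passed with a pseudocount of 5 (1.80), in DESeq2 (2.53) and with the replicate block (2.59), and ranged from 1.80 to 3.01 with 1 library left out. Il6st lay between -0.0091 and 0.14 with 1 library left out. The ratio differences ranged over these omissions from 2.91 to 4.05 (Il12rb2 to Il12rb1), -0.62 to -0.44 (Il27ra to Il6st) and 0.14 to 0.24 (Il6ra to Il6st). Without the 3 libraries the first and second were 3.88 and -0.57, where 10 assignments allow no p below 0.1. Il17rb, never past the threshold, turned to 0.025 under quantile normalization, 0.13 without the 3 libraries, and 0.15 and 0.07 without WT replicate 1 or 2 (range over 8 omissions, -0.55 to 0.15). A filter on a mean of 50 removes Il12rb2, Il17d and Il17rb.

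Over all genes, 611 were higher and 700 lower. The counts were 226 and 299 with the macrophage covariate, then 167 and 305 without the 3 libraries, and 389 to 588 and 495 to 724 with 1 library left out. The labels do not say whether same-numbered libraries are paired. Deviations of same-numbered libraries correlated at 0.22, 0.09, 0.05 and 0.11, and those of differently numbered libraries at -0.16 to 0.11. The replicate block gave 1243 higher and 1292 lower, and whether the number pairs libraries was not tested. Pathway genes called lower numbered 29, with the covariate 15, and 17 without the 3 libraries. The cause of these shifts was not tested. Depth limits Il12rb2, Il23r and Il17rc, with few or no reads in some libraries.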
